A study of Mus musculus with 28 samples.

Results

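Controlled cortical impact (CCI), a piston blow to the exposed cortex that serves as a model of traumatic brain injury, was followed in wild type mice by comparing 7 injured animals (WT-CCI) with 7 sham animals (WT-Sham). These 14 arrays were chosen by their labels from the 28 of the series, whose other 14 came from mice labelled KO for Rbm5 and entered here only the estimate of spread and the comparison of genotypes. The sham mice received anaesthesia and no craniotomy. The injured mice received anaesthesia, a craniotomy over the left parietal cortex and an impact at 6 m/s to a depth of 1.2 mm, so the opening of the skull and the impact cannot be told apart. All mice were 12 to 15 weeks old and were perfused with cold phosphate-buffered saline 48 h later, and each wild type group held 4 females and 3 males. The strain of the wild type mice and their relation to the KO mice are not given in the sources used here. The sources do not say whether sham tissue was taken from the same side as the injured tissue. Total RNA of cortical tissue (100 ng) was labelled and hybridised to the MTA 1.0 array, a mouse transcriptome array, 1 animal to each array. Its values are log2 signal for 65956 transcript clusters, which are groups of probes that the array design assigns to 1 locus, and 30541 different genes could be named among them.

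Mechanical injury of the cortex opens blood vessels, kills neurons and releases intracellular contents that microglia, the resident macrophages of the brain, sense through pattern recognition receptors. Cytokines and chemokines then recruit neutrophils and monocytes from blood, macrophages engulf debris and the haem of lysed red cells, and astrocytes enlarge, induce intermediate filaments and form a border around the lesion. Surviving neurons can change their channels, receptors and transcription, and microglia and other glia divide in the days after injury.

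The array medians of the 14 wild type arrays lay between 5.80 and 5.89, and the median correlation of an array with the others of its group was 0.994 to 0.997. Where the mean signal of a gene on the sham arrays lay below 5.80, the lowest of these array medians, it was treated as near background and the fold is not exact. Genes of this kind that were called are described as not shown to be above background. This held for 61 of the 342 named genes that rose at least 2-fold and for 12 of the 66 that rose at least 4-fold. The medians of the array's negative control rows were higher, 6.56 to 6.71, so a level above 5.80 is not thereby shown to be above background. Rbm5 itself was at 10.59 to 10.82 on the wild type arrays and 9.66 to 9.84 on the KO arrays. The label of cortex was checked against its markers. Slc17a7, the vesicular glutamate transporter of cortical excitatory neurons, lay between 13.34 and 13.98 over both groups, and the mean of 8 hippocampal genes was 5.37 to 5.52 on sham arrays and 5.37 to 5.47 on CCI arrays. The mean of 9 markers of cortical excitatory neurons, Slc17a7 among them, was 11.11 to 11.26 on sham arrays. It was lower on CCI arrays, 10.53 to 10.98, and 6 of the 9 were called lower. Single arrays stood apart in markers of neighbouring tissue. The mean of 11 genes of striatal projection neurons was 6.59 to 7.03 on the sham arrays, 8.04, 8.46 and 8.64 on CCI replicates 13, 16 and 35, and 6.47 to 6.65 on the other 4 CCI arrays. The mean of 12 choroid plexus genes was 7.51 on sham replicate 25, 7.66 on CCI replicate 14 and 6.76 on CCI replicate 35, and 5.68 to 6.30 on the other 11 arrays. Neither list had a called member. These 5 arrays and 2 from KO animals were left out in a second fit, which kept only CCI replicates 15, 34 and 36 of the injured wild type arrays. Of the genes that rose at least 2-fold 342 of 342 were called there too, and of those that fell at least 1.5-fold 168 of 173. The genes were chosen by a fit that held the same arrays, so such agreement is partly built in. Where the second fit ends or makes the call of a named gene, or moves its unlogged fold over 1.5 times, its value stands beside the result. The same holds where it changes the count of a whole list by over 1.5 times. Smaller shifts are given for some genes only. Over the 342 genes the mean rise was 1.83, 1.77 and 1.96 on CCI replicates 15, 34 and 36. It was 1.36 to 1.56 on the CCI arrays left out. In the second fit less neighbouring tissue, fewer injured arrays and a stronger response on the arrays kept cannot be told apart. The part of dissection in such results was not tested.

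Differences between the groups were estimated in a linear model over all 28 arrays, and a transcript cluster was called when its p-value, adjusted over all 65956, lay under 0.05. Injury moved a large share of the transcriptome, with the large changes nearly all upward. Of 65956 transcript clusters, 11094 were called (16.8%), of which 5843 were higher (8.86%) and 5251 lower (7.96%) after injury. All 7 injured arrays lay on 1 side of all 7 sham arrays for 4786 transcript clusters (7.26%), 2926 of them higher and 1860 lower. Among the 30541 named genes 4206 rose and 2556 fell, but 342 rose at least 2-fold against 18 that fell as much. At 4-fold or more 66 rose and 0 fell, and 8 rose by a log2 change of 4 or more. The median log2 change of all transcript clusters was -0.02. Protein-coding genes made up 2745 of the rises and 2181 of the falls, which are 14.4% and 11.4% of the 19114 named, and the gene lists below are read against these shares too. A count of rises or falls near them is not read as a result about the list. The classes of RNA differed in balance. Of 4425 pseudogenes 963 rose (21.8%) and 118 fell (2.67%), and of 914 small nuclear RNA genes 265 rose (29.0%) and 12 fell (1.31%). Of 3318 long non-coding RNA genes 58 rose (1.75%) and 175 fell (5.27%), both below the shares of all transcript clusters. Pseudogenes and small nuclear RNA genes come in near-identical copies whose probes can share signal, so these counts are not counts of separate genes. In bulk tissue more or fewer cells of a type and more or less RNA per cell cannot be told apart, which applies to each result below.

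**Figure D1:**
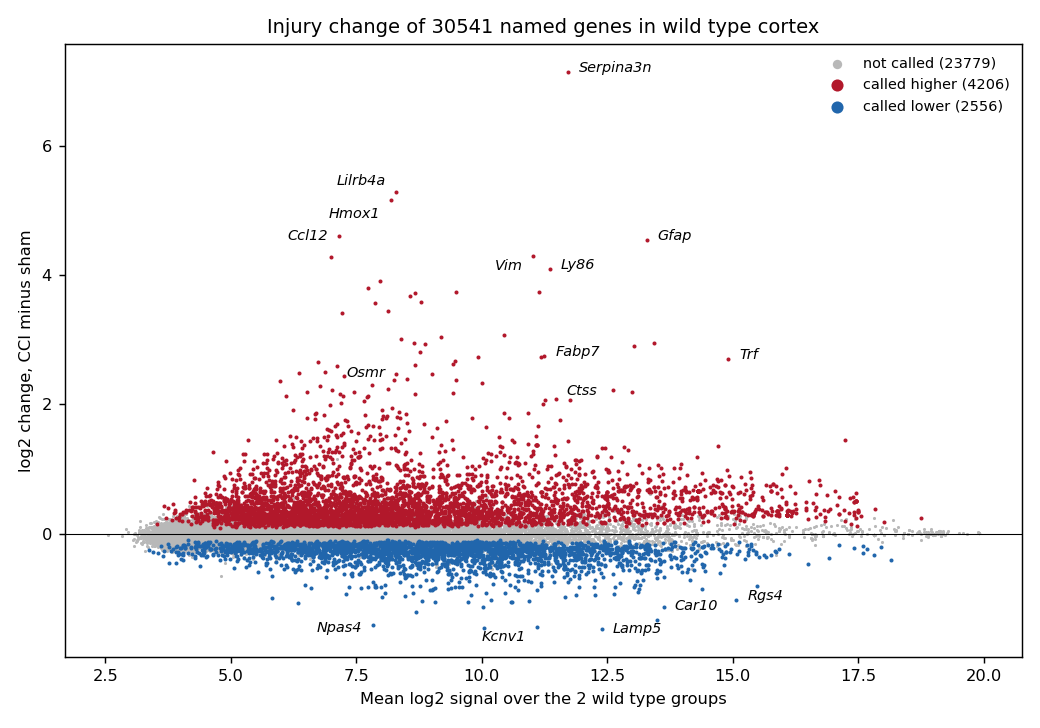
Each point is 1 of 30541 named genes, with the mean log2 signal over both wild type groups on the x axis and the log2 change (CCI minus sham) on the y axis. Red marks the 4206 genes called higher, blue the 2556 called lower and grey those not called at an adjusted p under 0.05. The rises reach a log2 change of 7.15, while no fall passes -1.48.

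The largest rise belonged to Serpina3n, a secreted serine protease inhibitor of reactive astrocytes. Its log2 signal was 7.81 to 8.74 (median 8.11) on the sham arrays and 14.51 to 15.71 (median 15.52) on the CCI arrays. The lowest injured animal thus lay far above the highest sham animal, and the change of 7.15 (SE 0.34, 142-fold, limma adjusted p = 1.76e-14) began from a sham median of 8.11. The filament proteins of astrocytes moved from higher starting points. Gfap, the astrocyte intermediate filament, was at 10.77 to 11.55 (median 10.95) on the sham arrays and 14.69 to 16.18 (median 15.42) on the CCI arrays (log2 change 4.55, SE 0.31, adjusted p = 2.04e-11). Vim, the filament vimentin of reactive astrocytes and many mesenchymal and myeloid cells, was at 8.59 to 9.10 (median 8.91) on the sham arrays and 12.57 to 13.77 (median 13.12) on the CCI arrays (log2 change 4.30, SE 0.20). Neither gene had any overlap between the groups, and in both the injured arrays covered a wider range than the sham arrays. Lcn2, a secreted protein that binds bacterial iron carriers and is induced in reactive astrocytes and found in neutrophils, rose by 3.73, and A2m, a broad protease trap of plasma and tissue, rose by 3.80. Tgm1, a protein cross-linking enzyme, rose by 3.57 (SE 0.17), from 5.9 to 6.23 on sham arrays to 8.86 to 10.33 on CCI arrays.

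Other large rises were in genes of myeloid cells. Lilrb4a, an immunoglobulin-like receptor that dampens activation of myeloid cells, and its close relative Lilr4b rose by 5.28 and 4.29. Lilrb4a was at 5.45 to 5.80 (median 5.69) on the sham arrays and 10.41 to 11.54 (median 10.88) on the CCI arrays, and the sham levels of both were not shown to be above background. The coding sequences of this receptor family are similar, so the probes of 1 member may also pick up another. Ly86, the partner of the Toll-like receptor relative CD180, rose by 4.10, Cd68, a lysosomal glycoprotein of phagocytes, by 3.74, Lyz2, the lysozyme of macrophages and neutrophils, by 3.68 (4.40 without the arrays that stood apart), Ifi30, a lysosomal thiol reductase that unfolds antigens, by 3.91, and Fcrls, a receptor that marks microglia, by 3.58. The groups did not overlap for any of these 5 genes. Ly86 reached 12.19 to 14.26 after injury from 9.08 to 9.53.

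**Figure D2:**
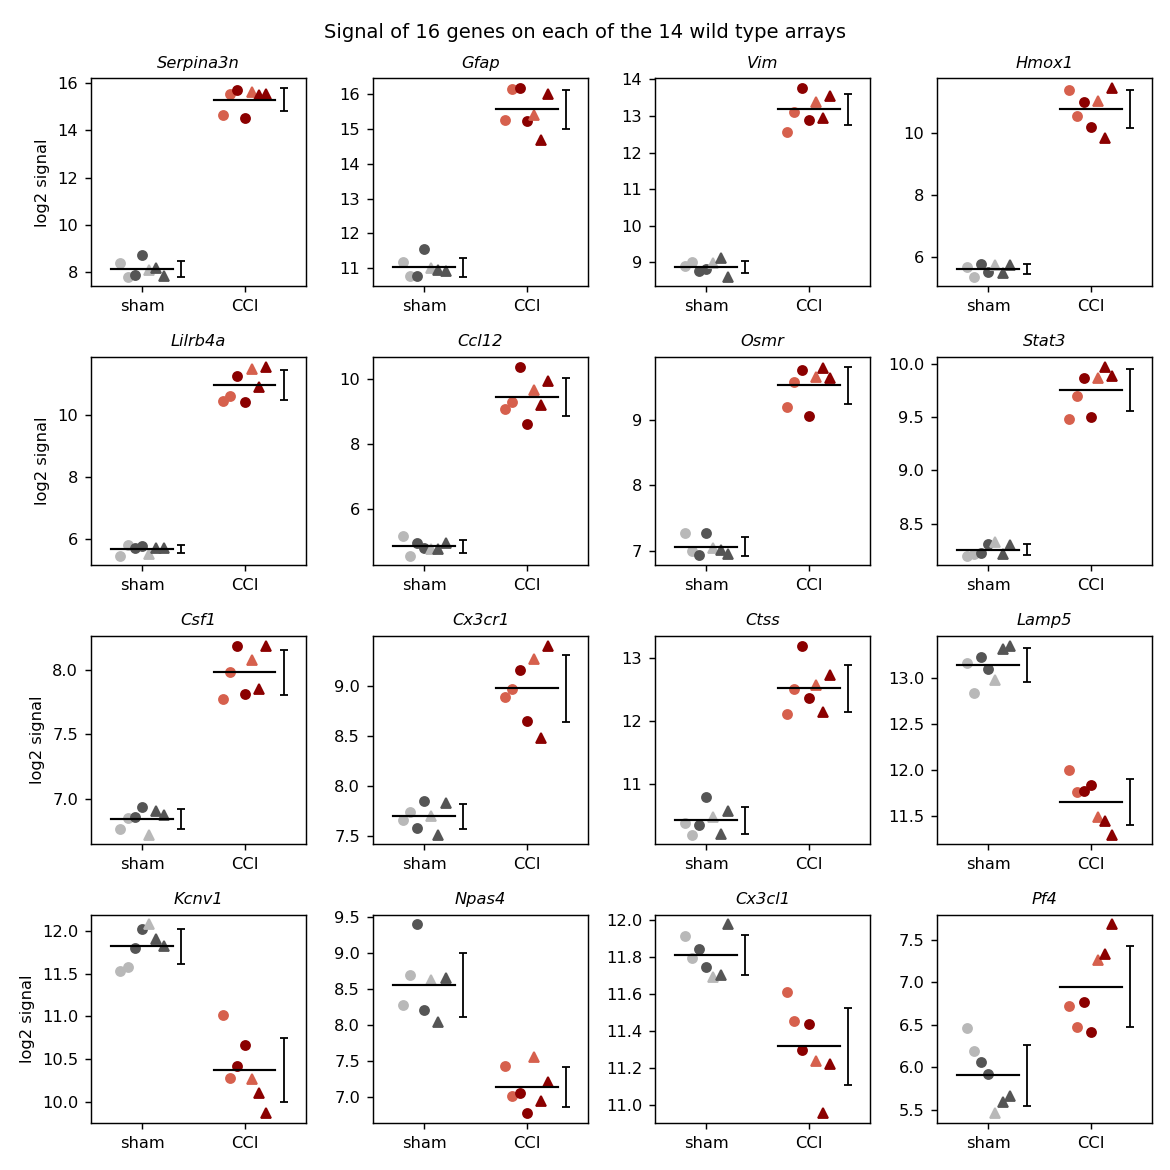
Log2 signal (y axis, a scale of its own in each panel) of 16 genes on the 7 sham arrays (grey) and the 7 CCI arrays (red) of wild type mice. Circles are title numbers 1 to 24 and triangles 25 to 42, lighter shades are males and darker shades females, the horizontal line is the group mean and the bar at its right is 1 SD to each side. The groups separate fully for all genes shown but Pf4, whose triangles lie furthest apart.

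Of 19 pattern recognition genes, 13 rose and 0 fell, against 8.86% higher over all transcript clusters, with a median log2 change of 0.61. Tlr13, an endosomal receptor for bacterial ribosomal RNA, was at 4.61 to 5.11 (median 4.74) on the sham arrays and 6.90 to 7.75 (median 7.16) on the CCI arrays, a change of 2.36 (SE 0.13, adjusted p = 4.76e-13) from a level not shown to be above background. Tlr7, an endosomal receptor for single-stranded RNA, was at 7.01 to 7.32 (median 7.11) on the sham arrays and 8.22 to 9.59 (median 8.86) on the CCI arrays (log2 change 1.78, SE 0.17). Both separated the groups completely. The surface receptors Tlr2 and Tlr4, which bind bacterial lipoproteins and lipopolysaccharide as well as host danger signals, rose by 1.13 and 1.02, Cd14, which delivers ligand to Tlr4, by 0.71, and Myd88, the adaptor most Toll-like receptors share, by 0.91. The sham levels of Tlr2 and Tlr4 were not shown to be above background. Tlr3, the receptor for double-stranded RNA, had a log2 change of 0.19 that was not called (adjusted p = 0.276). Of 17 inflammasome and interleukin 1 genes, 12 rose and 0 fell. Il33, an alarmin stored in nuclei of glia and released by damage, rose most among the ligands, from 9.52 to 10.01 on sham arrays to 10.63 to 11.32 on CCI arrays (1.21, SE 0.16). Il1r1, the signalling receptor of interleukin 1, rose by 0.98. The cytokines Il1b and Il1a and the sensor Nlrp3 rose by 0.71, 0.62 and 0.32, each from a sham level not shown to be above background, and Il1rn, the receptor antagonist, by 0.35 with overlapping groups from such a level as well.

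In the interleukin 6 family 2 of 6 ligands and 3 of 5 receptors rose, with the largest changes in a receptor and in Stat3. Cytokines of the interleukin 6 family signal through a shared receptor chain, gp130 (Il6st), and the transcription factor Stat3. Osmr, the receptor chain for oncostatin M, was at 6.93 to 7.26 (median 7.00) on the sham arrays and 9.07 to 9.81 (median 9.65) on the CCI arrays (log2 change 2.48, SE 0.12, adjusted p = 2.78e-14). Stat3 was at 8.20 to 8.33 (median 8.22) on the sham arrays and 9.48 to 9.97 (median 9.86) on the CCI arrays (log2 change 1.5, SE 0.07, adjusted p = 1.62e-14). The groups did not overlap for either, and the sham animals differed by little for Stat3 (SD 0.05). Il6st rose by 0.54, and Lifr, the receptor for leukaemia inhibitory factor, fell by 0.21, a call lost without the 5 wild type and 2 KO arrays that stood apart (adjusted p = 0.0772). Il6 itself rose by 0.30 (adjusted p = 0.0149, and 0.133 without those arrays), from a level not shown to be above background, and Socs3, the feedback inhibitor of this pathway, by 0.26 (adjusted p = 0.00439, and 0.0984 without them), from such a level as well. Lif and Osm had log2 changes of 0.01 and 0.08, neither called, though Osm was called without the arrays that stood apart (0.18, adjusted p = 0.0222). In all, 10 of 17 genes rose and 1 fell, and among the 6 signalling and feedback genes 5 rose, 2 without the arrays that stood apart. Of 30 genes of the tumour necrosis factor system, 14 rose and 0 fell, but only 1 of 8 ligands was among them, Tnf itself (0.41, SE 0.059, with 4.01 to 4.29 on sham arrays, not shown to be above background, and 4.38 to 4.77 on CCI arrays). Receptors were called in 6 of 12 cases. Tnfrsf12a, the receptor for TWEAK, rose by 1.16, Tnfrsf1a by 1.09 and Tnfrsf1b by 0.64, and Rela, the activating subunit of the transcription factor NF-kB, by 0.73. None of these 4 genes had overlapping groups, and the sham levels of Tnfrsf12a and Tnfrsf1a were not shown to be above background.

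The 250 bases before the start of transcription were searched for 6 motifs of transcription factors that act in inflammation, neuronal activity and cell division. RefSeq (GRCm38.p6) gave exactly 1 promoter for 22862 genes, 177 of the 342 that rose at least 2-fold and 108 of the 173 that fell at least 1.5-fold. The core of the interferon-stimulated response element, 2 copies of TTTC with 2 bases between, searched like all motifs on both strands, was present in 3.11% of all promoters, in 16 of the 177 (9.04%) and in 6 of the 108 (5.56%). TGANTCA, the AP-1 motif, was present in 6.96%, 8.47% and 5.56%, and TTCCNGGAA, which STAT factors bind, in 0.949%, 2.26% and 0%. An NF-kB motif, GGGA and TTTCC with 1 base between, was present in 0.346%, 0.565% and 0%, TTTCCCGC, an E2F motif, in 0.94%, 0.565% and 0.926%, and TGACGTCA, the cyclic AMP response element, in 1.61%, 1.13% and 3.7%. A match is a description of letters, not a bound site. The 4 promoters below are shown because 3 belong to genes that rose at least 2-fold and hold the interferon-type letters in different settings, and 1 to a neuronal gene that fell and holds the cyclic AMP element. Capitals mark every match to these motifs, and overlapping matches run together.
Bst2, GRCm38.p6, chr8:71537473-71537722, minus strand: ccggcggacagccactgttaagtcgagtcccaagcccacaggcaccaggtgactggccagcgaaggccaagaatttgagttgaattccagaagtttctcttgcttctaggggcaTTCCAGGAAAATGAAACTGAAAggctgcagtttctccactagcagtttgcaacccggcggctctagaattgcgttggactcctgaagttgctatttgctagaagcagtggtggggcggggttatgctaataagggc
Gbp2, GRCm38.p6, chr3:142620413-142620662, plus strand: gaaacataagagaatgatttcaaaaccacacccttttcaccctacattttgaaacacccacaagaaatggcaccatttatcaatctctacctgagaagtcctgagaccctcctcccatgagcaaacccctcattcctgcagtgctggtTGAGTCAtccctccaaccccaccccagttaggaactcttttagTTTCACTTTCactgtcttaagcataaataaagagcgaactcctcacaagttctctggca
Ctss, GRCm38.p6, chr3:95526536-95526785, plus strand: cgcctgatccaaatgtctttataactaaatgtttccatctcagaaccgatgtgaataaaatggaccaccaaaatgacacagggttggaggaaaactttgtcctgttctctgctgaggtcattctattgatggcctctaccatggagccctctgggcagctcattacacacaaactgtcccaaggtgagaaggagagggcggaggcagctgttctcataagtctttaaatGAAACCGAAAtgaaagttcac
Pcsk1, GRCm38.p6, chr13:75089607-75089856, plus strand: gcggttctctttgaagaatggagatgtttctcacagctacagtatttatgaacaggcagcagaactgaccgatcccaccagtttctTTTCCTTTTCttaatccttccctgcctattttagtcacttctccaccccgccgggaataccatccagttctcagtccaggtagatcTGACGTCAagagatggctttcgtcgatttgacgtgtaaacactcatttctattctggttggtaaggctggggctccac
In the Bst2 promoter 2 overlapping interferon-type matches adjoin and overlap a STAT match, and together they span positions -136 to -115 from the start. In Gbp2 an AP-1 match lies at -102 and an interferon-type match at -59, and in Ctss the interferon-type match lies at -21. The Pcsk1 promoter holds the cyclic AMP element at -78 and, at -164, letters of the interferon type as well. Bst2, the antiviral membrane protein tetherin, was at 6.62 to 7.25 (median 6.90) on the sham arrays and 7.58 to 9.49 (median 8.07) on the CCI arrays (log2 change 1.26, SE 0.18, adjusted p = 7.85e-06). Gbp2, an interferon-induced GTPase, was at 5.87 to 6.22 (median 6.16) on the sham arrays and 6.79 to 8.32 (median 7.15) on the CCI arrays (log2 change 1.20, SE 0.28, adjusted p = 0.00246). For both genes the highest CCI array lay well above the CCI median, while the lowest lay above all sham arrays. Bst2 and Gbp2 were named for these promoters after their values were seen.

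Chemokines were led by a single ligand. Ccl12, which attracts monocytes through Ccr2, was at 4.57 to 5.16 (median 4.79) on the sham arrays and 8.62 to 10.37 (median 9.30) on the CCI arrays, a change of 4.60 (SE 0.20, adjusted p = 3.68e-15) from a level not shown to be above background. Ccl9 and Ccl3, 2 macrophage-attracting ligands, rose by 1.67 and 1.6, and Ccl2, a further ligand of Ccr2, by 0.82. Cxcl10 rose by 0.34 with overlapping groups, and Cxcl1, a neutrophil attractant, had a change of 0.22 that was not called (adjusted p = 0.0875). The fractalkine pair moved in opposite directions. Cx3cl1, the ligand carried by neurons, was at 11.69 to 11.98 (median 11.80) on the sham arrays and 10.95 to 11.61 (median 11.30) on the CCI arrays and fell by 0.49 (SE 0.077, adjusted p = 2.3e-05). Cx3cr1, its receptor on microglia and monocytes, was at 7.51 to 7.85 (median 7.69) on the sham arrays and 8.47 to 9.40 (median 8.97) on the CCI arrays and rose by 1.28 (SE 0.12, adjusted p = 8.48e-09). Neither gene had overlapping groups. Ccr2, the receptor of inflammatory monocytes, rose by 0.64. Of the 30 genes of the chemokine system 15 rose and 1, Cx3cl1, fell, and 2 were lower without the arrays that stood apart. The sham levels of Ccr2 and Cxcl10 were not shown to be above background.

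Fc receptors and related receptors signal through adaptors with a tyrosine motif (ITAM) to the kinase Syk, and of 24 such genes 18 rose and 0 fell (median log2 change 0.69). All 6 adaptors and kinases and 7 of 8 activating receptors rose, against 5 of 10 inhibitory receptors. Fcer1g, the adaptor chain of Fc receptors, was at 6.48 to 6.89 (median 6.65) on the sham arrays and 8.30 to 10.03 (median 8.79) on the CCI arrays (log2 change 2.29, SE 0.21, and 2.88 without the arrays that stood apart). Tyrobp, the adaptor of Trem2, rose by 1.48 and Trem2, a lipid-sensing receptor of microglia, by 0.82, with the lowest CCI value of Trem2 at 6.19 against a highest sham value of 6.08. Fcgr2b, the inhibitory Fc receptor, rose by 2.13 and Clec7a, which binds beta-glucans, by 1.02. The phagocyte oxidase makes superoxide from NADPH, and 5 of 5 of its subunits rose, among them Ncf1 (1.20), Rac2 (1.18), Cyba (1.07) and the catalytic subunit Cybb (0.87). Of 4 other oxidase genes only Nox4 rose (0.17). The sham levels of Clec7a, Rac2, Cybb, Nox4 and Syk were not shown to be above background.

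Lysosomal genes showed the highest median of the 34 lists, 0.96, with 17 of 22 higher and 0 lower. All 10 hydrolases and membrane proteins other than cathepsins rose, and 7 of 12 cathepsins did. Ctsc, which activates granule proteases, was at 7.14 to 7.56 (median 7.36) on the sham arrays and 9.42 to 10.78 (median 10.21) on the CCI arrays (log2 change 2.81, SE 0.16). Ctss, a cathepsin of myeloid cells that cuts the invariant chain of class II molecules and whose promoter is shown above, was at 10.21 to 10.81 (median 10.39) on the sham arrays and 12.12 to 13.20 (median 12.51) on the CCI arrays (log2 change 2.09, SE 0.17, adjusted p = 3.94e-10). Both separated the groups. Ctsz rose by 2.33, Lgmn, an asparagine-specific protease, by 2.22, and Ctsb, one of the brightest lysosomal genes at 15.43 to 15.65 in sham, by 1.02. In the proteasome, which degrades cytosolic proteins, 24 of 36 genes rose and 0 fell, by small amounts (median 0.18). Psme1, a subunit of the interferon-inducible activator, rose by 0.50, Psmb6 by 0.41 and Psmd8 by 0.38. Of the inducible catalytic subunits Psmb8 rose by 0.29 from a level not shown to be above background, and Psmb9 had a change of 0.09 that was not called. Psmb10 rose by 0.23 (adjusted p = 0.0325), and its call did not hold when any 1 of sham replicates 2 and 3 or CCI replicates 14, 15 and 34 was left out (adjusted p up to 0.0893) or without the arrays that stood apart (adjusted p = 0.0543).

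**Figure D3:**
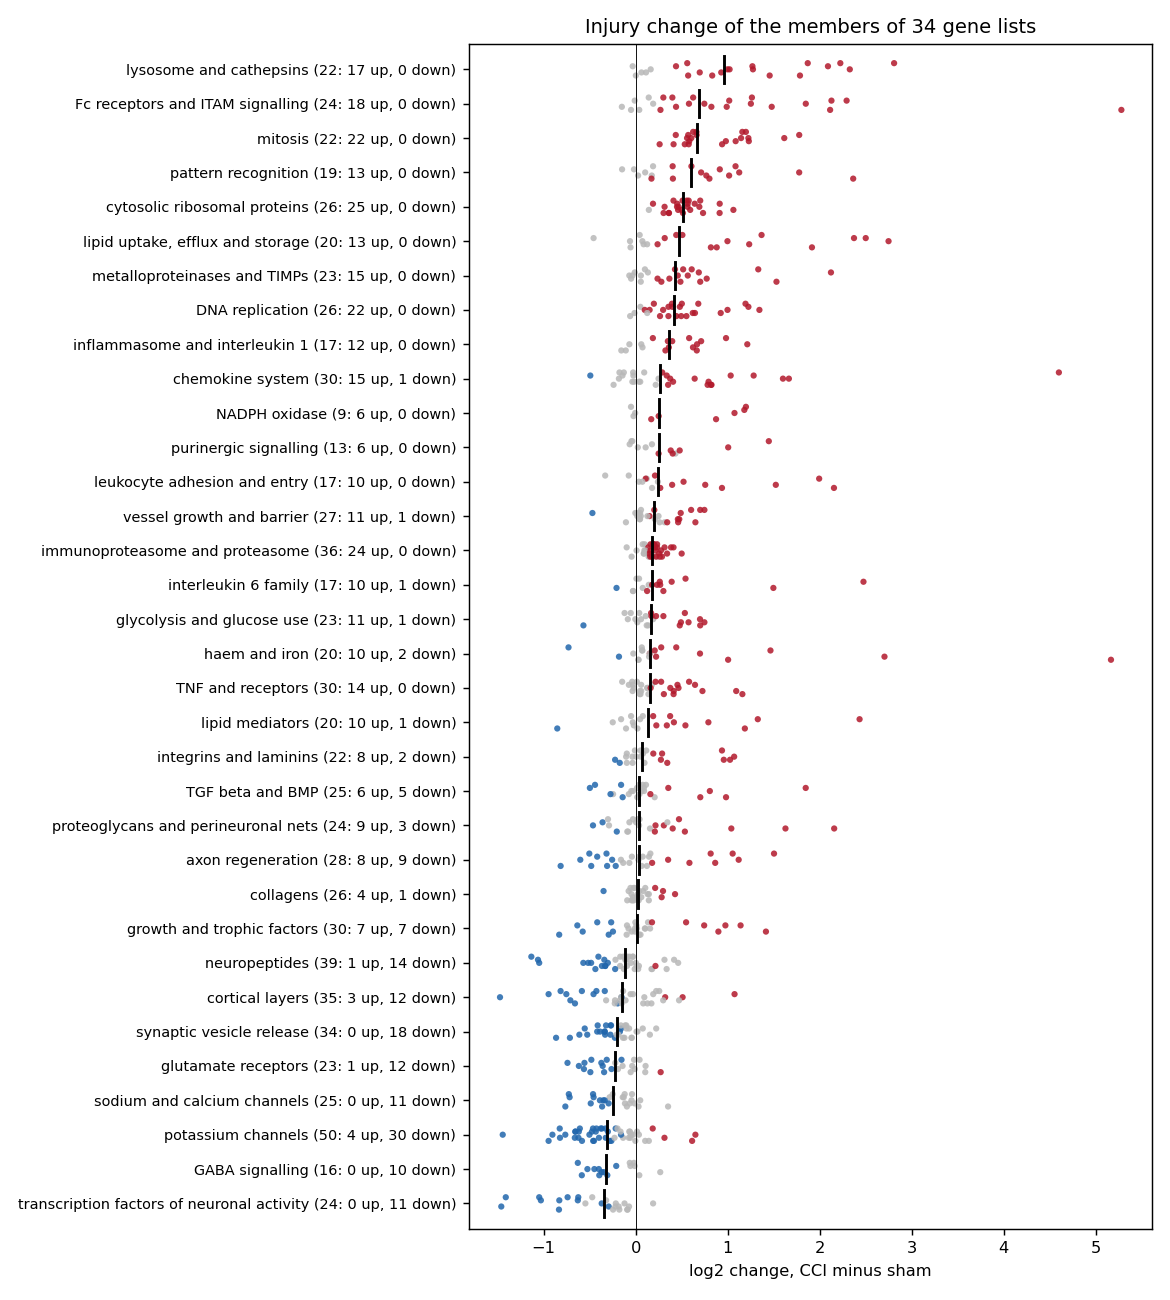
Each point is 1 measured gene of a list, with its log2 change (CCI minus sham) on the x axis, red where called higher, blue where called lower and grey where not called, and the black bar is the median of the list. The number of genes and of calls stands beside each name, and lists are ordered by median, from transcription factors of neuronal activity at the bottom to lysosome and cathepsins at the top.

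Of 20 genes of lipid uptake, efflux and storage 13 rose and 0 fell. Msr1, a scavenger receptor for oxidised lipoproteins, was at 5.56 to 5.69 (median 5.6) on the sham arrays and 7.58 to 8.63 (median 8.04) on the CCI arrays (log2 change 2.50, SE 0.11), from a level not shown to be above background. Plin2, a coat protein of lipid droplets, was at 6.98 to 7.15 (median 7.04) on the sham arrays and 8.99 to 10.04 (median 9.31) on the CCI arrays (log2 change 2.37, SE 0.14). These 2 genes separated the groups, whereas Fabp7, a fatty acid binding protein of radial glia and astrocytes, rose by 2.75 (SE 0.39) with overlap, from 9.24 to 10.76 on sham arrays to 10.29 to 13.44 on CCI arrays (median 13.07). Without the arrays that stood apart its change was 3.58. Ch25h, which makes 25-hydroxycholesterol, rose by 1.92 from such a level and Abca1, the cholesterol exporter, by 1.37. Apoe, the main lipid carrier of brain, had a log2 change of -0.06 that was not called (adjusted p = 0.72). Among 20 haem and iron genes 10 rose and 2 fell, the falls near the 11.4% of named protein-coding genes that fell (14.4% rose). Hmox1, the inducible enzyme that opens haem, was at 5.35 to 5.78 (median 5.66) on the sham arrays and 9.84 to 11.45 (median 10.98) on the CCI arrays (log2 change 5.17, SE 0.22, adjusted p = 3.93e-15), from a sham level not shown to be above background. Trf, transferrin, which oligodendrocytes and choroid plexus make in brain, was at 13.08 to 13.86 (median 13.59) on the sham arrays and 15.91 to 16.49 (median 16.35) on the CCI arrays (log2 change 2.70, SE 0.16). Both had wide gaps between the groups. Cp, a ferroxidase, rose by 1.47, Fth1, the ferritin heavy chain, by 0.22 near the top of the signal range, and Tfrc, the transferrin receptor, fell by 0.73. Ireb2, an iron-sensing RNA-binding protein, fell by 0.18 and was not called without the arrays that stood apart (adjusted p = 0.0634). Slc40a1, the iron exporter ferroportin, had a change of 0.07 (not called). Markers of red cells were not called in either direction (0 of 2).

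Of 20 genes of lipid mediators 10 rose and 1 fell. Alox5ap, which presents arachidonic acid to 5-lipoxygenase, rose by 2.43 (SE 0.16), with 5.80 to 6.28 on sham arrays and 7.88 to 9.18 on CCI arrays, and Alox5 itself by 0.22 from a level not shown to be above background. Pla2g4a, the phospholipase that frees arachidonic acid, rose by 1.19. The prostaglandin D synthases moved oppositely, since Hpgds, the haematopoietic form, rose by 1.33 and Ptgds, the form of meninges, choroid plexus and oligodendrocytes, fell by 0.85 (adjusted p = 0.00461, and 0.0528 without the arrays that stood apart). Ptgs2, the inducible cyclooxygenase, rose by 0.41 (adjusted p = 0.0184), a call lost without CCI replicate 34 (adjusted p = 0.0526). Of 13 purinergic genes 6 rose and 0 fell, against 14.4% and 11.4% of named protein-coding genes. The largest rises were in the nucleotide receptors P2ry6 (1.45), which senses UDP, and P2ry13 (1.01). P2ry12, the microglial ADP receptor, was at 6.13 to 6.76 (median 6.46) on the sham arrays and 6.20 to 7.19 (median 7.01) on the CCI arrays and was not called (0.43, adjusted p = 0.0583), but was called without the arrays that stood apart (0.67, adjusted p = 0.0032).

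Entry of leukocytes was examined from both sides of the vessel wall. Of 17 adhesion genes 10 rose and 0 fell. Itgam, the alpha chain of complement receptor 3, was at 7.49 to 7.72 (median 7.58) on the sham arrays and 9.51 to 10.18 (median 9.61) on the CCI arrays (log2 change 2.16, SE 0.10), and Cd44, the hyaluronan receptor, was at 5.70 to 6.30 (median 5.97) on the sham arrays and 7.66 to 8.24 (median 8.03) on the CCI arrays (log2 change 1.99, SE 0.088). Both separated the groups with a gap of over 1 log2 unit. Itgb2, the shared beta 2 chain, rose by 1.52. On the endothelial side Selp, a selectin that slows leukocytes, rose by 0.76 and Icam1 by 0.27, both from levels not shown to be above background. Vcam1 had a change of 0.24 that was not called (adjusted p = 0.0932), but was called without the arrays that stood apart (0.40, adjusted p = 0.0249). Of 12 neutrophil markers 7 rose, against 14.4% of named protein-coding genes. They included S100a8 (2.49) and S100a9 (1.26) with overlap and Csf3r (0.89) without, S100a8 from a level not shown to be above background. The mean of the 12 was 4.94 to 5.45 on sham arrays, where replicate 2 was highest, and 5.4 to 6.01 on CCI arrays, where replicate 35 was highest. Of 10 T and B cell markers 0 rose and, near the 11.4% of named protein-coding genes, 1 fell. That one, the co-receptor Cd8a, fell by 0.24 from a level not shown to be above background, and was not called without the arrays that stood apart (adjusted p = 0.129).

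Genes of cell division rose in nearly every case. Of 26 DNA replication genes 22 rose and 0 fell (median log2 change 0.42), and of 22 mitosis genes 22 rose (median 0.66). Pcna, the sliding clamp of DNA polymerase, was at 9.07 to 9.43 (median 9.30) on the sham arrays and 10.04 to 10.40 (median 10.15) on the CCI arrays (log2 change 0.92, SE 0.069). The helicase subunits Mcm3, Mcm6 and Mcm2 rose by 1.34, 1.23 and 0.55, and Rrm2, a ribonucleotide reductase subunit, by 1.19. Among mitotic genes Kif11, a spindle motor, was at 5.66 to 5.87 (median 5.78) on the sham arrays and 6.51 to 8.09 (median 7.58) on the CCI arrays (log2 change 1.78, SE 0.17) and Ccna2, a cyclin of S phase and mitosis, at 6.04 to 6.21 (median 6.10) on the sham arrays and 7.00 to 8.12 (median 7.75) on the CCI arrays (log2 change 1.62, SE 0.12). Each injured animal exceeded each sham animal for these genes, but the injured animals differed widely, and the mean of the mitosis list was 5.95 on CCI replicate 35 against 6.34 to 6.67 on the other CCI arrays and 5.55 to 5.61 on sham arrays. Prc1 rose by 1.23, Cdk1 by 0.58 and Birc5 by 0.26, the last with overlapping groups (0.46 without the arrays that stood apart). The sham levels of Mcm3, Mcm6, Rrm2, Kif11, Cdk1 and Birc5 were not shown to be above background. Cytosolic ribosomal protein genes rose in 25 of 26 cases, with a median of 0.51. The groups did not overlap for 24 of the 26, against 14.1% of named protein-coding genes. Rplp0 was at 10.14 to 10.29 (median 10.18) on the sham arrays and 11.02 to 11.51 (median 11.24) on the CCI arrays (log2 change 1.06), and Rps4x and Rpsa rose by 0.91 and 0.91. Ribosomal protein genes have many processed copies in the genome, so probe signal may be shared among copies.

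Of 26 collagen genes 4 rose, a share near the 14.4% of all named protein-coding genes, and 1 fell, against 11.4%. Without the arrays that stood apart 2 fell. The fibrillar chains Col1a1 and Col1a2 had log2 changes of 0.14 and 0.13, neither called. The basement membrane chains Col4a1 and Col4a2 rose by 0.28 and 0.30, Col6a1 by 0.43 and Col3a1, from a level not shown to be above background, by 0.21, and Col19a1 fell by 0.35. Of 24 proteoglycans and net components 9 rose and 3 fell, the falls again near the 11.4% of named protein-coding genes. Tnc, tenascin C, a matrix protein of scars, was at 5.93 to 6.33 (median 6.07) on the sham arrays and 7.71 to 8.90 (median 8.20) on the CCI arrays (log2 change 2.16, SE 0.14), and Sdc4, a membrane heparan sulphate carrier, at 8.08 to 8.48 (median 8.33) on the sham arrays and 9.46 to 10.46 (median 9.91) on the CCI arrays (log2 change 1.63, SE 0.13). Vcan rose by 0.40 and Dcn by 1.04. The components of nets around neurons differed, since Bcan, brevican, and Hapln1, a link protein, fell by 0.46 and 0.36, whereas Ncan (0.04) and Acan (-0.09) were not called. Cspg5 fell by 0.21 (adjusted p = 0.0457), and its call did not hold when any 1 of 8 wild type arrays was left out (sham replicates 3, 4, 25, 26 and 27, CCI replicates 16, 34 and 35, adjusted p up to 0.12) or without the arrays that stood apart (adjusted p = 0.213).

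Proteases of the matrix and their inhibitors rose in 15 of 23 cases and fell in 0. Timp1, an inhibitor of metalloproteinases, was at 4.86 to 5.18 (median 5.04) on the sham arrays and 6.5 to 8.28 (median 6.94) on the CCI arrays (log2 change 2.12, SE 0.19), with a sham level not shown to be above background. Adamts1, a protease that cuts versican, rose by 1.53 and Adam8, a protease of leukocytes, by 1.33 from a level not shown to be above background. Mmp12, Mmp3 and Mmp9 rose by 0.70, 0.57 and 0.24, each from a level not shown to be above background, and Mmp2 had a change of 0.05 (not called). Timp2 rose by 0.28 (adjusted p = 0.0401), and its call did not hold when any 1 of 9 wild type arrays was left out (sham replicates 1, 3, 4, 26 and 27, CCI replicates 13, 15, 34 and 36, adjusted p up to 0.107). The change of Timp2 was 0.46 without the arrays that stood apart (adjusted p = 0.0022). Of 22 integrin and laminin chains 8 rose and 2 fell, the falls near the 11.4% of named protein-coding genes that fell (14.4% rose). Itgb1 and Itga6 rose by 0.96 and 1.03, Itgb5 by 1.07 and Itga5, the fibronectin receptor chain, by 0.94, while Lama1 and Lama3 fell by 0.22 and 0.17.

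Of 30 growth and trophic factor genes 7 rose and 7 fell, against 14.4% higher and 11.4% lower among named protein-coding genes. Csf1, the growth factor of microglia and macrophages, was at 6.72 to 6.93 (median 6.86) on the sham arrays and 7.78 to 8.19 (median 7.99) on the CCI arrays (log2 change 1.14, SE 0.066, adjusted p = 1.03e-12), and all injured arrays lay above all sham arrays. Il34, the other ligand of the same receptor, had a change of 0.10 that was not called. Igfbp7, a binding protein of vessels, rose by 1.42 and Hbegf, a ligand of the epidermal growth factor receptor, by 0.97. Among the falls were Igf2, a growth factor of meninges and choroid plexus (-0.83), Fgf13 (-0.63), Fgf9 (-0.58) and Vegfa, the main angiogenic factor (-0.42). Bdnf, the activity-dependent neurotrophin, and Ntrk2, its receptor, fell by 0.29 and 0.27. Igf1 had a change of 0.01 (not called). In the transforming growth factor beta family 6 of 25 genes rose and 5 fell (2 without the arrays that stood apart), against the same 14.4% and 11.4%. Tgfb1 was at 5.95 to 6.11 (median 6.05) on the sham arrays and 6.77 to 7.29 (median 7.03) on the CCI arrays (log2 change 0.98, SE 0.076), and its receptor chain Tgfbr2 rose by 0.81. Thbs1, thrombospondin 1, which activates latent TGF beta, rose by 1.85 with overlap from a level not shown to be above background. Gdf10 and Bmp6 fell by 0.50 and 0.44, the latter not called without the arrays that stood apart (adjusted p = 0.151).

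Vessel genes changed modestly. Of 27 genes of vessel growth and the blood-brain barrier 11 rose and 1 fell. Slc2a1, the glucose transporter of barrier endothelium and astrocytes, was at 11.39 to 11.92 (median 11.73) on the sham arrays and 11.99 to 12.62 (median 12.33) on the CCI arrays (log2 change 0.70, SE 0.12), and Slc16a1, a lactate transporter, rose by 0.75. Cldn5, the main claudin of tight junctions, rose by 0.47 with overlap and Angpt2, which destabilises vessels, by 0.49. Slco1a4, an anion transporter of barrier endothelium, fell by 0.47, and Ocln, Mfsd2a, Abcb1a and Plvap had log2 changes of at most 0.06 in size, none called. Of 23 genes of glucose use 11 rose and 1 fell. Hk2, an inducible hexokinase, rose by 0.57 from a level not shown to be above background and Pgd, of the pentose phosphate path, by 0.70, while Hk1, Ldha and the neuronal transporter Slc2a3 had changes of 0.04, 0.06 and -0.09, none called. Slc16a7, the neuronal lactate transporter, fell by 0.57 (SE 0.071).

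Regeneration genes were read by role. Of 15 genes of the axonal growth programme 6 rose and 1 fell. Arg1, arginase 1, which injured neurons and macrophages induce, was at 5.33 to 5.53 (median 5.44) on the sham arrays and 6.43 to 7.60 (median 6.62) on the CCI arrays (log2 change 1.5, SE 0.15) and Atf3, a stress-induced transcription factor, at 5.62 to 5.96 (median 5.74) on the sham arrays and 6.23 to 7.06 (median 6.51) on the CCI arrays (log2 change 0.81, SE 0.10). Sprr1a, induced in regenerating neurons, rose by 1.12 with overlap. All 3 had sham levels not shown to be above background, and Gap43, the growth cone protein, was bright and had a change of 0.06 that was not called. Of 13 guidance cues and growth inhibitors 2 rose and 8 fell. Sema3a, a repellent of axons, was at 8.92 to 9.13 (median 9.02) on the sham arrays and 8.12 to 8.31 (median 8.19) on the CCI arrays and fell by 0.82 (SE 0.06, adjusted p = 6.75e-11). Slit2 and Omg, an oligodendrocyte and neuronal inhibitor, fell by 0.50 and 0.60, and Mag, a myelin inhibitor, and Sema4d rose by 1.05 and 0.18, the latter not called when any 1 of sham replicates 1, 25, 26 and 27 or CCI replicates 15, 16 and 36 was left out (adjusted p up to 0.0746). Of 11 myelin genes 6 rose and 0 fell, 3 without the arrays that stood apart. Cldn11, a claudin of myelin, rose by 1.44 (SE 0.15) and Mobp by 0.82, with no overlap for either.

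Neuronal genes fell by small amounts in many families, beside falls in 6 of 9 markers of cortical excitatory neurons (median -0.26). Whether neurons were fewer was not tested. Of 50 potassium channel genes 30 fell and 4 rose, against 7.96% lower over all transcript clusters, with a median log2 change of -0.31. The voltage-gated subunits, which repolarise neurons, fell in 17 of 23 cases and rose in 0. Kcnv1, a silent subunit that modifies other channels, was at 11.53 to 12.08 (median 11.82) on the sham arrays and 9.86 to 11.01 (median 10.28) on the CCI arrays (log2 change -1.45, SE 0.15, adjusted p = 1.88e-08). Kcnh5 was at 12.51 to 13.04 (median 12.79) on the sham arrays and 11.55 to 11.97 (median 11.83) on the CCI arrays (log2 change -0.95, SE 0.10) and Kcnh7 at 13.21 to 13.75 (median 13.67) on the sham arrays and 12.49 to 12.86 (median 12.65) on the CCI arrays (log2 change -0.91, SE 0.094). None of the 3 had overlap. Kcnd2, the A-type channel of dendrites, fell by 0.45 with overlap (-0.77 without the arrays that stood apart). The rises were elsewhere in the family, in Kcnj10, the glial inward rectifier (0.65), Kcnk6 (0.61), Kcnip3 (0.31, a call lost without CCI replicate 36, adjusted p = 0.0508, and under quantile normalization, where the change was 0.14) and Kcnt1 (0.18, and 0.10 without the arrays that stood apart, adjusted p = 0.241). Kcnip3 had a change of 0.52 without the arrays that stood apart (adjusted p = 0.000556). Kcnk13, a channel of microglia, had a change of -0.03 (not called). Of 25 sodium and calcium channel genes 11 fell and 0 rose. Scn1a, the sodium channel of fast-spiking interneurons, was at 12.80 to 13.36 (median 13.17) on the sham arrays and 11.98 to 12.63 (median 12.42) on the CCI arrays (log2 change -0.77, SE 0.10), and Scn8a, that of axon initial segments, fell by 0.39. Cacna2d1 and Cacng3, auxiliary subunits of calcium channels and AMPA receptors, fell by 0.73 and 0.72, Cacna1a by 0.46, and Cacna1c had a change of -0.05 (not called).

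**Figure D4:**
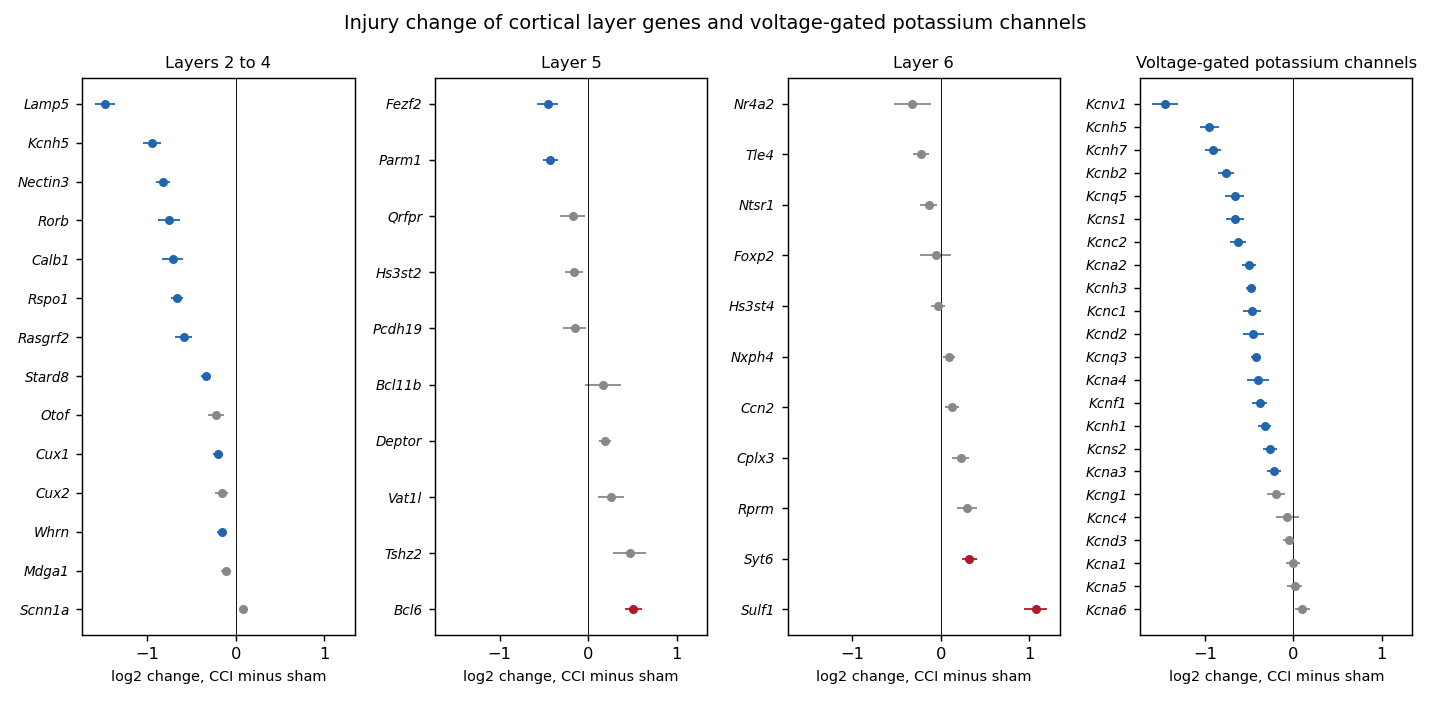
Log2 change (CCI minus sham, x axis) of each measured gene of layers 2 to 4 (14 genes), layer 5 (10 genes), layer 6 (11 genes) and the voltage-gated potassium channels (23 genes), with bars of 1 standard error to each side, red where called higher, blue where called lower and grey where not called. Layers 2 to 4 hold 10 falls and 0 rises, layer 6 holds 0 falls and 2 rises. Without the arrays that stood apart layer 6 held 2 falls and 3 rises. Among all named protein-coding genes 14.4% rose and 11.4% fell.

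Transmitter receptors fell on both the excitatory and the inhibitory side. Of 23 genes of glutamate signalling 12 fell and 1 rose, and of 16 genes of GABA signalling 10 fell and 0 rose, though 1 was higher without the arrays that stood apart. Grin2a, an NMDA receptor subunit, was at 13.24 to 13.56 (median 13.37) on the sham arrays and 12.72 to 12.94 (median 12.87) on the CCI arrays (log2 change -0.56, SE 0.054), and Grin2b fell by 0.34 (adjusted p = 0.000413, and 0.111 without the arrays that stood apart, where 1 of 5 NMDA subunits was called in place of 3). Gria4 and Gria2, subunits of AMPA receptors, fell by 0.56 and 0.36, and Grm2, a presynaptic metabotropic receptor, by 0.74. The glial transporters parted, since Slc1a2 fell by 0.37 from a very bright signal and Slc1a3 rose by 0.27. Slc17a7 had a log2 change of -0.02 (adjusted p = 0.94), whereas Slc17a6, its counterpart of thalamus and of few cortical neurons, fell by 0.62. Gabrb2 was at 14.67 to 14.85 (median 14.74) on the sham arrays and 14.05 to 14.25 (median 14.17) on the CCI arrays (log2 change -0.59, SE 0.048, adjusted p = 4.96e-10), and Gabra4, Gabra3 and Gabrd fell by 0.63, 0.53 and 0.35. The GABA-synthesising enzymes differed with the arrays used. Gad1 fell by 0.40 (adjusted p = 0.0113, and 0.0633 with the 14 wild type arrays alone). Its change was -0.77 without the arrays that stood apart (adjusted p = 3.3e-06). Gad2 was at 11.16 to 11.49 (median 11.36) on the sham arrays and 10.68 to 12.38 (median 10.92) on the CCI arrays, was not called (-0.02), and was lower without the arrays that stood apart (-0.53, adjusted p = 0.00195). Striatal projection neurons are GABAergic, and the part of striatal tissue in the values of these 2 enzymes was not tested further.

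Of 34 genes of vesicle release 18 fell and 0 rose, with 10 of 18 genes of fusion and 8 of 16 of the vesicle and active zone lower. Without the arrays that stood apart 1 of the 34 was higher. Unc13a, which primes vesicles, was at 11.44 to 11.64 (median 11.48) on the sham arrays and 10.07 to 11.16 (median 10.77) on the CCI arrays (log2 change -0.87, SE 0.11). Rims3 and Rims1, scaffold proteins of the active zone, fell by 0.72 and 0.61, and Syt1, the calcium sensor of release, by 0.23. Snap25, among the brightest genes of the array, had a change of -0.10 (adjusted p = 0.0555), and Syn1 one of -0.19, neither called, though Syn1 was called under quantile normalization (-0.34, adjusted p = 0.00288). Vamp2 fell by 0.16 (adjusted p = 0.0478), and its call did not hold when any 1 of 9 wild type arrays was left out (sham replicates 1, 3, 25, 26 and 27, CCI replicates 14, 16, 34 and 35, adjusted p up to 0.126), and it was -0.07 without the arrays that stood apart (adjusted p = 0.541). Of 39 neuropeptide genes 14 fell and 1 rose, the receptor Adcyap1r1 (0.21, and its call did not hold when any 1 of sham replicates 3, 4, 26 and 27 or CCI replicates 14 and 36 was left out, adjusted p up to 0.0804). Npy1r, a receptor of neuropeptide Y, was at 10.36 to 10.80 (median 10.66) on the sham arrays and 9.27 to 9.65 (median 9.50) on the CCI arrays (log2 change -1.14, SE 0.09, adjusted p = 2.76e-10) and Cckbr, the main cholecystokinin receptor of brain, at 10.15 to 10.37 (median 10.24) on the sham arrays and 8.73 to 9.68 (median 9.19) on the CCI arrays (log2 change -1.06, SE 0.11). Pcsk1, a convertase that cuts peptide precursors and whose promoter is shown above, was at 9.22 to 9.47 (median 9.30) on the sham arrays and 7.94 to 8.59 (median 8.35) on the CCI arrays (log2 change -1.05, SE 0.093, adjusted p = 2.31e-09). All 3 separated the groups. Of 17 peptides 7 fell, among them Sst by 0.52, Npy by 0.44 and Vip by 0.41. Cck fell by 0.37 (adjusted p = 0.0381), and its call did not hold when any 1 of sham replicates 2, 25, 26 and 27 or CCI replicates 15, 16 and 35 was left out (adjusted p up to 0.105). Without the arrays that stood apart its change was -0.19 (adjusted p = 0.338). Crh fell by 0.33 (adjusted p = 0.00948, and 0.0698 without the arrays that stood apart). Penk, a peptide of striatal neurons, spanned 6.37 to 9.90 on CCI arrays and was not called.

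Of 14 genes of layers 2 to 4 10 fell and 0 rose (median -0.46), of 10 genes of layer 5 2 fell and 1 rose (median 0.01), and of 11 genes of layer 6 0 fell and 2 rose (median 0.09). Without the arrays that stood apart, 8 genes of layers 2 to 4 and 2 of layer 6 were lower and 3 of layer 6 higher. The counts in layers 5 and 6 are small and lie near the shares of all named protein-coding genes, 14.4% higher and 11.4% lower. The difference between layers was not tested, since genes are not replicates. Lamp5, of upper-layer neurons and neurogliaform interneurons, was at 12.83 to 13.35 (median 13.15) on the sham arrays and 11.30 to 12.00 (median 11.77) on the CCI arrays (log2 change -1.48, SE 0.11, adjusted p = 7.56e-11). Rorb, of layer 4, was at 11.84 to 12.32 (median 12.04) on the sham arrays and 11.07 to 11.80 (median 11.27) on the CCI arrays (log2 change -0.75, SE 0.12) and Nectin3, of layers 2 and 3, at 9.02 to 9.39 (median 9.20) on the sham arrays and 7.91 to 8.58 (median 8.45) on the CCI arrays (log2 change -0.82, SE 0.081). The groups did not overlap for these 3, but Cux2, also of upper layers, had a change of -0.16 that was not called. In layer 5 Bcl6 rose by 0.51, and Fezf2 and Parm1 fell by 0.46 and 0.43. Fezf2 was not called without the arrays that stood apart (-0.39, adjusted p = 0.112), which left 1 fall in layer 5. Sulf1, a sulphatase of layer 6 and of other cells, rose by 1.07, and Syt6 by 0.32 (adjusted p = 0.00721, and 0.255 without the arrays that stood apart). Foxp2, which striatal neurons also express, was not called (-0.06), and was lower without those arrays (-0.40, adjusted p = 0.0443).

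Transcription factors and targets of neuronal activity had the lowest median of the 34 lists, -0.35, with 11 of 24 lower and 0 higher. Npas4, which neurons induce with calcium entry, was at 8.04 to 9.39 (median 8.61) on the sham arrays and 6.77 to 7.55 (median 7.06) on the CCI arrays (log2 change -1.41, SE 0.28, adjusted p = 0.000493). Nr4a1, an immediate early nuclear receptor, was at 9.95 to 11.55 (median 10.84) on the sham arrays and 8.75 to 9.91 (median 9.48) on the CCI arrays (log2 change -1.46, SE 0.34, adjusted p = 0.00221, and 0.0916 without the arrays that stood apart). Neither overlapped, although the sham animals themselves covered more than 1 log2 unit. Egr1 fell by 0.62 with overlap, while Fos (-0.09) and Arc (-0.55, adjusted p = 0.313) were not called, and Arc spanned 9.56 to 11.21 on sham arrays. Rgs4, a brake on G protein signalling, was at 15.26 to 15.89 (median 15.63) on the sham arrays and 13.95 to 15.01 (median 14.58) on the CCI arrays (log2 change -1.03, SE 0.14). Scg2, an activity-regulated granin, was not called (-0.22), and was lower without the arrays that stood apart (-0.55, adjusted p = 0.0024).

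Car10, a carbonic anhydrase relative secreted at synapses, was at 14.05 to 14.35 (median 14.19) on the sham arrays and 12.93 to 13.28 (median 13.05) on the CCI arrays (log2 change -1.13, SE 0.079, adjusted p = 2.74e-11), a tight shift with similar spread in both groups. Trhde, which degrades thyrotropin-releasing hormone, fell by 1.06, Prmt8, a brain arginine methyltransferase, by 1.04 and Tafa1, a secreted brain protein, by 1.03. Rpe65 and Olfr464, named for retina and olfactory receptors, fell by 1.00 and 1.08 to injured medians of 5.27 and 5.72, below the lowest array median. Ogn, a matrix protein of meninges, fell by 1.06 (adjusted p = 0.0265), and its call did not hold when any 1 of sham replicate 2 or CCI replicates 13 and 35 was left out (adjusted p up to 0.0736), and its change was -0.67 without the arrays that stood apart (adjusted p = 0.332). Of the 10 genes of meningeal fibroblasts Dcn and Aldh1a2 rose and Ogn, Igf2 and Slc22a6 fell, and 1 of the 10 was lower without the arrays that stood apart, where Slc22a6 had an adjusted p of 0.0506. Aldh1a2 rose by 0.41, and its call did not hold when any 1 of sham replicates 3 and 26 or CCI replicates 15 and 34 was left out (adjusted p up to 0.0769) or without the arrays that stood apart (adjusted p = 0.0508). Of 8 thalamic markers Prkcd, Rgs16 and Plekhg1 rose by 0.60, 0.88 and 0.48 and Slc17a6 fell.

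MicroRNA genes have rows of their own on the array. Of 918, 11 rose (1.20%) and 25 fell (2.72%), both below the shares of all transcript clusters (8.86% and 7.96%). A row reports signal over the precursor locus and does not measure the mature microRNA. The 4 called rows with the largest change are shown by the mature sequences that RefSeq (GRCm38.p6) gives for them, with the seed, bases 2 to 8, in capitals.
mmu-miR-692, from Mir692-1: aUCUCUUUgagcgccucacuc
mmu-miR-128-1-5p, from Mir128-1: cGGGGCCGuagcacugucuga
mmu-miR-128-3p, from Mir128-1: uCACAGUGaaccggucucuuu
mmu-miR-703, from Mir703: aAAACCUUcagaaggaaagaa
mmu-miR-101c, from Mir101c: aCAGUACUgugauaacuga
No 2 of these seeds are the same. Mir128-1, a precursor abundant in neurons, was at 13.86 to 14.40 (median 14.14) on the sham arrays and 12.37 to 13.29 (median 12.87) on the CCI arrays (log2 change -1.34, SE 0.12, adjusted p = 2.37e-09), with no overlap. It lies within R3hdm1, whose own row was at 15.67 to 16.03 (median 15.96) on the sham arrays and 14.61 to 15.38 (median 15.22) on the CCI arrays and fell by 0.81 (SE 0.093, adjusted p = 1.77e-07). R3hdm1 was named for this position after its value was seen. Mir692-1 rose by 2.73 (SE 0.20), with 9.58 to 10.05 on sham arrays and 11.94 to 13.50 on CCI arrays, Mir703 by 0.96 and Mir101c by 0.83, the last from a level not shown to be above background. Such short rows can pick up signal from near-identical copies, so the source of these 3 rises is uncertain.

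The animals agreed on direction and differed in size. Averaged over the 342 genes that rose at least 2-fold, the injured arrays lay 1.36 (replicate 16) to 1.96 (replicate 36) above the sham mean on the log2 scale, and the sham arrays between -0.05 and 0.02. Over the 173 genes that fell at least 1.5-fold the injured arrays lay between -0.91 (replicate 35) and -0.61 (replicate 13). These genes were chosen on the same arrays, so the values describe and do not test. Replicate 35 had the deepest mean fall but a smaller mean rise (1.43) than replicates 36, 15, 34 and 14. The spread between animals was larger after injury for 321 of the 342 genes (93.9%), with a median SD of 0.135 on sham arrays and 0.314 on CCI arrays, and for 63.1% of all named genes.

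**Figure D5:**
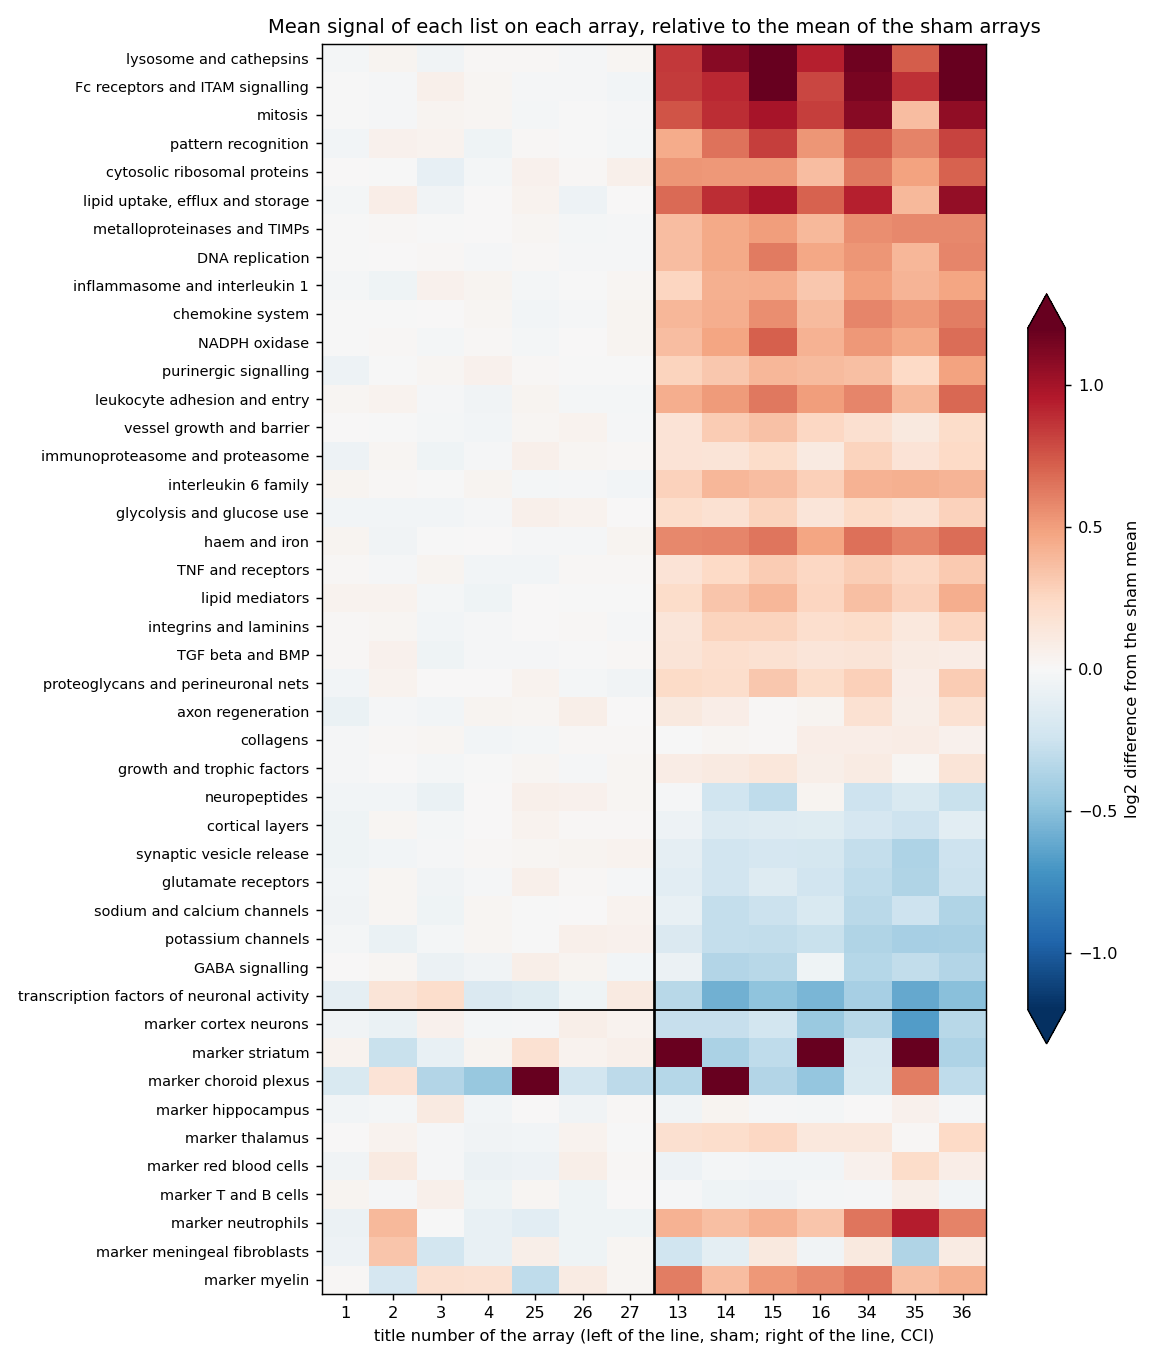
Mean log2 signal of the measured genes of each list on each of the 14 wild type arrays, as the difference from the mean of the 7 sham arrays (red higher, blue lower, colours end at 1.2 to each side). Rows above the line are the 34 lists and rows below it the 10 lists of tissue and cell markers, where striatum is high on CCI replicates 13, 16 and 35 and choroid plexus on sham replicate 25 and CCI replicates 14 and 35.

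The injury change was compared between title numbers 1 to 24 and 25 to 42, runs that each held both groups (4 and 3 arrays of each) and that the labels do not call batches. Of the 6762 named genes called, 6761 had the same direction in both runs, and 329 of the 342 large rises were called in each. These genes were chosen by a fit that held both runs and both sexes, so such agreement is partly built in. The counts, like those by sex below, describe and do not test. Of all 11094 calls, 48.8% were also called with title numbers 1 to 24 alone and 42.7% with 25 to 42 alone. The median change of these 342 was 1.26 in the first run and 1.43 in the second, and that of the 173 falls was -0.61 and -0.85. A test of the difference called 3 of 65956 transcript clusters (0.00455%), with 5027 at an unadjusted p under 0.05 (7.62%). The only named one was Pf4, a platelet chemokine that macrophages at brain borders also express. It was at 5.45 to 6.46 (median 5.91) on the sham arrays and 6.41 to 7.68 (median 6.77) on the CCI arrays. Its change was 1.85 in the second run and 0.44 in the first, a difference of 1.42 (SE 0.22, limma adjusted p = 0.032), and the test called 0 transcript clusters under quantile normalization and 0 when any 1 of sham replicates 1, 3, 25, 26 and 27 or CCI replicates 14, 16, 34 and 35 was left out. The test of a difference between females and males called 4 transcript clusters (0.00606%), all on the Y chromosome and 0 when any 1 of sham replicates 1, 2 and 3 or CCI replicates 34 and 35 was left out, with 3229 at an unadjusted p under 0.05 (4.9%), and 332 of the 342 large rises were called in each sex. The median change of these genes was 1.36 in females and 1.32 in males. The injury change in wild type differed from that in KO mice for 0 of 65956 transcript clusters by limma at an adjusted p under 0.05, and 4097 had an unadjusted p under 0.05 (6.21%). The smallest p among named coding genes belonged to Shisa3, whose change was lower in wild type by 0.45 (adjusted p = 0.633), and Cldn11, which differed by 0.77 (adjusted p = 0.713), was among the next. A p that misses the threshold does not show that the changes are alike.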

How the data were processed

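Cortical RNA of 28 mice was measured on MTA 1.0 arrays, 1 animal to each. The deposited table holds log2 signal made by the authors. The software, background correction and normalization behind these log2 values are not given in the sources used here, so compression of large folds cannot be judged. Of 72688 rows, 6732 control rows were left out and 65956 transcript clusters were tested. Of those tested, 1644 held values identical to those of another row, so counts of transcript clusters are not counts of separate measurements. Genes were named through the platform annotation and RefSeq (GRCm38.p6), which gave 1 gene for 30468 rows directly and for 612 through older names, several genes for 1670 and none for 33206. The brightest cluster stood for a gene with several.

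With R 4.3.3 and limma 3.58.1, 4 group means and sex were fitted over all 28 arrays, and Benjamini-Hochberg adjusted p-values under 0.05 were called. Adjusted p-values in the text are from limma. They weigh a difference against the spread between animals within groups, estimated over all 28 arrays unless others are named and moderated across genes. The number of arrays limits precision. Differences between sexes, runs and genotypes were tested as contrasts of the same kind. Tested on simulated data, the injury contrast recovered 44% of changes of log2 0.25, 80% of 0.5, 98% of 1 and 100% of 2. For the same sizes the sex contrast recovered 0%, 24%, 66% and 98%, and the run contrast 0%, 16%, 76% and 100%. The genotype contrast recovered 6%, 50%, 92% and 100%. Each simulation changed 50 transcript clusters per size, far fewer than the 11094 called for injury, so recovery in the data may differ. The simulated noise was also independent between transcript clusters and had the same SD in all groups. In the data the median SD of the 342 genes that rose at least 2-fold was 0.135 on sham arrays and 0.314 on CCI arrays. Tables and plots used Python 3.11.15, pandas 2.3.3, numpy 2.4.6 and matplotlib 3.10.9.

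Most genes were picked by rule: core members of each list, the 15 largest rises and falls, up to 3 in each direction per list, the 4 largest microRNA changes and up to 5 with the smallest p in each test of a difference, leaving out predicted gene models. Of those with the smallest p in a test of a difference, Pf4, Arg1, Shisa3 and Cldn11 are described and the others are not. Genes outside the rule are also described, among them Fezf2, Parm1, Kcnt1, Nox4, Syk, Sema4d, Bst2, Gbp2 and R3hdm1. Of 287 genes followed, 272 are described in the text. The core genes Cspg4, Inhba, Itga4, Kdr, Klf6, Lamc1, Nptx2, P2rx4, Sdc1, Slc16a3 and Slc32a1 were picked but are not described. The same holds for Entpd1, Neurod6, Nog and Nrn1, picked from their lists. The members and lists were chosen with earlier results of these data known. Alternatives were other arrays, terms, runs, normalizations, filters, variance models, weights and thresholds.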

Additional observations from a re-analysis of the deposited data

Results flagged for a closer look

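Among the named genes, 33 of 544 groups of 7 arrays held an array that stood apart from the other 6 by Dixon's test, which chance gives in about 1 in 20 groups. CCI replicate 35 stood apart in log2 signal for Abcb1a (9.27, others 9.64 to 9.91), Alox5 (5.27, others 4.95 to 5.05), Angpt2 (7.30, others 6.47 to 6.66), Cspg5 (8.22, others 8.58 to 8.80), Fabp7 (10.29, others 12.18 to 13.44), Itgb5 (8.47, others 9.18 to 9.68), Mmp3 (6.36, others 5.10 to 5.46), Ncan (11.22, others 11.66 to 11.87), Ntrk2 (12.89, others 13.13 to 13.29), Sema4d (7.81, others 8.08 to 8.18), Slc17a7 (13.34, others 13.71 to 13.98), Syn1 (14.18, others 14.55 to 14.82) and Tafa1 (9.06, others 9.62 to 9.97). Sham replicate 2 stood apart in log2 signal for Col1a1 (6.79, others 6.44 to 6.54), S100a8 (7.02, others 4.48 to 5.01), S100a9 (7.79, others 6.13 to 6.43) and Tlr3 (8.0, others 7.76 to 7.85). Sham replicate 1 stood apart in log2 signal for Itgb2 (6.57, others 6.21 to 6.34), Ncan (11.29, others 11.62 to 11.80), Selp (4.88, others 4.60 to 4.70) and Thbs1 (6.34, others 5.58 to 5.73). Sham replicate 25 stood apart in log2 signal for Itga5 (5.84, others 6.09 to 6.20), Plvap (5.75, others 5.34 to 5.46) and Slc17a6 (10.06, others 9.66 to 9.82). CCI replicate 13 stood apart in log2 signal for Bdnf (5.71, others 5.57 to 5.63) and Mmp12 (5.16, others 5.49 to 5.58). CCI replicate 15 stood apart in log2 signal for Gbp2 (8.32, others 6.79 to 7.40) and Tlr2 (7.21, others 6.35 to 6.68). Sham replicate 3 stood apart in log2 signal for Ifi30 (5.58, others 6.08 to 6.12) and Ocln (7.52, others 7.70 to 7.82). Sham replicate 26 stood apart in log2 signal for Col4a2 (6.80, others 6.63 to 6.70). Sham replicate 27 stood apart in log2 signal for Psmb8 (5.66, others 5.39 to 5.50). CCI replicate 14 stood apart in log2 signal for Snap25 (18.57, others 18.68 to 18.77). The mean of the choroid plexus markers was 7.51 on sham replicate 25 against 5.69 to 6.30 on the other sham arrays.

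The injury change differed between females and males for 4 Y-linked rows, 3 of Orly (females minus males -0.92, -0.92 and -0.99) and 1 of Gm20854 (-1.35), each with a limma adjusted p of 0.0195. The Orly rows at -0.92 gave identical estimates (SE 0.143), so they do not count as separate measurements. The change was 0.91, 0.91, 0.95 and 1.45 in males and -0.01, -0.01, -0.04 and 0.098 in females, who carry no Y chromosome. The injury change of Pf4 was larger by 1.42 in title numbers 25 to 42 than in 1 to 24 (limma adjusted p = 0.032).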

How the results depend on the processing

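Of 287 genes followed 242 were called, 0 of these changed direction under the alternatives run, and 231 kept the call without every single array. Many of the 242 were picked as the largest changes on the same arrays that the alternatives reuse. Such constancy is therefore partly built in. With title numbers 1 to 24 alone 55 calls were lost, with 25 to 42 alone 55, without the 7 arrays that stood apart 20, with array centring 6, with the 14 wild type arrays alone 5, with quality weights 2 and with quantile normalization 1. No call was lost with no sex term, run as a covariate, a variance trend or, among the genes kept by them, either filter. The 11094 calls became 7268 at an adjusted p under 0.01, 5900 in title numbers 1 to 24 and 5217 in 25 to 42. The 5843 higher became 3505 and 3105 in these runs, and the 5251 lower 2395 and 2112, 3111 at the stricter threshold and 3065 among rows with 1 named gene. The 45 falls of at least 2-fold became 27 and 141 in the runs, 18 among rows with 1 named gene and 79 without the 7 arrays. Leaving out 1 wild type array gave 9616 to 10972 calls, 5090 to 5854 higher and 4526 to 5236 lower, 450 to 535 rises and 32 to 57 falls of at least 2-fold, 0 to 13 sex differences, 0 to 5 run differences and 0 to 0 genotype differences. Quantile normalization gave 0 run differences. Of the calls 52.7% were higher, and 48.8% to 60.5% under the alternatives. The cause of these shifts was not tested. No paired analysis was possible because the groups share no title numbers. Levels near background limit the folds of the dimmer genes.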
